A study of Mus musculus with 12 samples.

Results

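Uba6, Syne1, Snx6 and Pdk1 were the 4 genes, other than the siRNA target itself, with a probe set past an adjusted p of 0.05 between Dcp1a siRNA and control siRNA eggs, and their levels were followed when Dcp2 siRNA was injected as well. They are 4 of the 18193 genes with a single symbol on the array, and 16 of its 45037 probe sets that are not controls carry their symbols. Full-grown CF1 mouse oocytes were injected with a mixture of Dcp1a and Dcp2 siRNA, with Dcp1a siRNA alone, with Dcp2 siRNA alone or with control siRNA. All were held in milrinone for 20 h, released to mature for 18 h, and profiled on Affymetrix arrays as eggs at the second meiotic metaphase (MII). Each of the 4 groups had 3 independent replicates of 30 pooled eggs, so a lower level in every egg and a loss from some eggs cannot be told apart. A single siRNA pool was used per target in every knockdown group, so loss of the target and any other effect of that pool cannot be told apart.

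Decapping removes the 5′ cap of an mRNA and commits it to 5′-to-3′ decay. Dcp2 is the enzyme that cuts the cap and Dcp1a is a cofactor that stimulates it. The full-grown oocyte is transcriptionally quiescent, and maturation draws on stored maternal mRNA, much of it cleared on the way to the egg. A transcript spared from decay would read higher after knockdown, and values on an array are relative to the other transcripts of that array. The genes themselves have unrelated roles. Uba6 is a ubiquitin-activating (E1) enzyme that also activates the ubiquitin-like protein FAT10. Syne1 encodes nesprin-1, a large protein of the outer nuclear membrane that links the nucleus to the cytoskeleton. Snx6 is a sorting nexin with a membrane-bending BAR domain that works with the retromer in endosome-to-Golgi transport. Pdk1 is a mitochondrial kinase that inhibits the pyruvate dehydrogenase complex, and egg energy metabolism depends on pyruvate.

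The genes were chosen on their values in Dcp1a siRNA against control siRNA eggs, so that comparison describes them and is not a test of them. In a limma fit over all 12 arrays, 6 of 11593 probe sets passed an adjusted p of 0.05 there, which is 0.0518%. At an unadjusted p under 0.05 there were 570, and in 1345 probe sets, or 11.6%, the arrays of these groups did not overlap. Of the 6, Uba6 1428944_at and Syne1 1455225_at were higher and Snx6 1447234_s_at and Pdk1 1423747_a_at were lower after Dcp1a siRNA. The other two were probe sets of Dcp1a. Just inside the threshold was Snx6 1447234_s_at with an adjusted p of 0.0445 in the limma fit, and just outside was Car10, with a log2 difference of -1.72 and an adjusted p of 0.488. Under the alternative settings tried, Uba6 remained past this threshold in 10 of 20, Syne1 in 6 of 20, Snx6 in 7 of 21 and Pdk1 in 9 of 21. The comparison of eggs given both siRNAs with eggs given Dcp2 siRNA has no array in common with that difference. The arrays are not fully separate from the choice, since the error of the choosing fit came from all 12, and all 4 genes lost their place when replicate 1 of the double siRNA or of the Dcp2 siRNA group was left out. That comparison alone is tested for the 4 genes, and every other difference of theirs is given with its standard error as a description.

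Both siRNAs lowered their targets in the arrays that carry their label. The brightest Dcp1a probe set averaged 791 ± 387 units with both siRNAs, 1010 ± 365 with Dcp1a siRNA, 8030 ± 1990 with Dcp2 siRNA and 8630 ± 3550 in control eggs (SD, n = 3 each). The Dcp2 probe set averaged 4.93 ± 0.06 units with both siRNAs, 46.2 ± 12.6 with Dcp1a siRNA, 4.97 ± 0.06 with Dcp2 siRNA, which is the floor of the scale, and 48.1 ± 29.2 in control eggs. This probe set was dim, with 32.2, 30.4 and 81.8 units in the control arrays, so the size of its fall depends on that floor. All 12 egg markers were above 32 units on every array, and none of the 14 cumulus and granulosa cell markers on the array was above 32 units on any. Summed egg markers ranged from 172000 to 177000 units with both siRNAs, 158000 to 177000 with Dcp1a siRNA, 132000 to 155000 with Dcp2 siRNA and 128000 to 156000 in control eggs, and their part in the results was not tested. The summed cumulus markers lay between 78 and 83.5 units in every group. Dcp1a siRNA arrays correlated with each other at r of 0.991 to 0.992, against 0.938 to 0.967 among control arrays. A pair of arrays stood apart from their groups. Control replicate 1 correlated with the Dcp1a siRNA arrays at 0.978 to 0.988 and with the other control arrays at 0.938 to 0.954. Dcp2 siRNA replicate 2 correlated with the Dcp1a siRNA arrays at 0.978 to 0.985 and with its own group at 0.938 to 0.963. Each tested difference is therefore also given without both.

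Of the 16 probe sets, 6 had a log2 intensity above 5, or 32 units, in at least 3 of the 12 arrays and were tested. Uba6 and Syne1 entered with 1 probe set each, and Snx6 and Pdk1 with a pair each. The 3 passing arrays of Syne1 were the Dcp1a siRNA arrays themselves, and those of Uba6 were these and a pair of double siRNA arrays, so both genes had to differ between groups to be tested. Suffixes mark the design of a probe set, _s_at for probes shared by several transcripts and _a_at for probes shared by alternative transcripts of a gene. Probe sets of a gene carry the same symbol, whether or not they read the same transcripts, and are not replicates of each other.

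**Figure D1:**
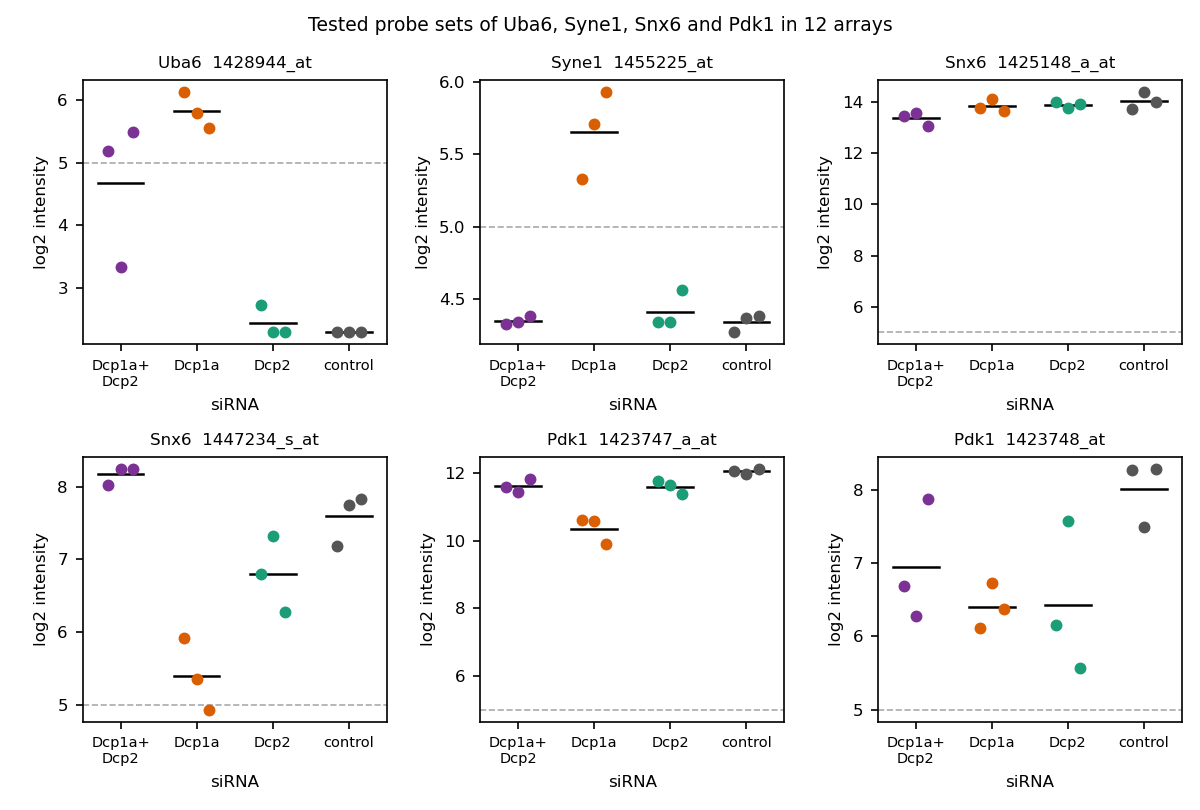
Log2 intensity of the 6 tested probe sets in each array, by injected siRNA (3 arrays a group; points are arrays, black bars are group means, the dashed line is log2 5, and the vertical scale differs between panels). Syne1 and the Pdk1 probe set 1423747_a_at had Dcp1a siRNA arrays apart from the other 9 arrays, Uba6 was above log2 5 in all 3 Dcp1a siRNA arrays and in a pair of double siRNA arrays, and Snx6 1447234_s_at was lowest with Dcp1a siRNA and highest with both.

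A Uba6 signal above that of the groups without Dcp1a siRNA was also read when Dcp2 siRNA was added, close to the lower limit of the measurement. Uba6 1428944_at read 36.4, 10.1 and 44.9 units with both siRNAs and 70.2, 55.9 and 46.7 units with Dcp1a siRNA. It read 6.6, 4.9 and 4.9 units with Dcp2 siRNA and 4.9 units in each control array, which is the lowest value in the table. Every array with Dcp1a siRNA, alone or with Dcp2 siRNA, was thus above every array without it, although replicate 2 of the double siRNA group was well under 32 units. Among all tested probe sets, 21.2% had no overlap between double and Dcp2 siRNA arrays. Between Dcp1a siRNA and control arrays 11.6% had none. The share in which every array with Dcp1a siRNA was above every array without it was not counted. The fitted log2 difference of double siRNA eggs from Dcp2 siRNA eggs was 2.23 ± 0.45 (SE, 95% interval 1.25 to 3.22, limma adjusted p = 0.0115, all 3 arrays higher). Both group means, 4.67 with both siRNAs and 2.44 with Dcp2 siRNA, lay below log2 5, so the size of this difference depends on the floor and no fold is given. In this comparison 739 of 11593 probe sets passed, which is 6.37%, of which 710 were higher, 6.12% of those tested, and 29 lower. The median difference of all tested probe sets was 0.06.

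The floor and single arrays bear on the Uba6 result. With values under 32 set to 32 the difference was 0.22 (limma adjusted p = 0.693), and without double siRNA replicate 1 it was 1.98 (limma adjusted p = 0.0601). The call was also lost with no filter on dim probe sets (limma adjusted p = 0.103) and with the error taken from the 6 arrays compared (0.0941). Without the pair of arrays that stood apart it was 2.16 and passed only narrowly (limma adjusted p = 0.04997).

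As descriptions, the log2 differences of Uba6 were 3.54 ± 0.45 for Dcp1a siRNA against control (at least 1.78-fold, measured from the 32-unit floor), 0.14 ± 0.45 for Dcp2 siRNA against control and 2.38 ± 0.45 for both against control. These comparisons share arrays with each other. Double siRNA eggs were below Dcp1a siRNA eggs in all arrays (-1.16 ± 0.45, at least 1.52-fold). Between these groups 31.8% of all tested probe sets had an unadjusted limma p under 0.05, and the share without overlap was not counted. The departure from additivity, in which the single differences are summed and taken away from that of the mixture, was -1.30 ± 0.63. Its 95% interval of -2.69 to 0.09 is a description too, since the choosing arrays enter it. Every control and Dcp2 siRNA array behind it was under 32 units, and the double siRNA arrays had an SD of 1.17.

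The other 4 Uba6 probe sets were under 32 units in every array. The pair with the next numbers was made against the same transcript accession as 1428944_at. Of these, 1428945_at read 10.4, 9.5 and 20.4 units with both siRNAs, 21.2, 25.5 and 13.5 with Dcp1a siRNA, 6.9, 6.8 and 6.7 with Dcp2 siRNA and 6.9, 6.8 and 8.1 in control eggs. As in 1428944_at, every array with Dcp1a siRNA was above every array without it, and double exceeded Dcp2 siRNA eggs (difference 0.89, exact two-sided permutation p = 0.1, the smallest that 3 arrays against 3 allow). The share of dim probe sets that separate in this way was not counted. In 1428946_at the log2 values were 2.85 to 2.93 with both siRNAs, 3.42 to 3.63 with Dcp1a siRNA, 2.56 to 2.85 with Dcp2 siRNA and 2.85 in each control array. There, double siRNA eggs and Dcp2 siRNA eggs overlapped (difference 0.12, exact permutation p = 0.6). The remaining pair, 1439302_at and 1443927_at, stayed between log2 2.29 and 2.54 in all arrays.

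**Figure D2:**
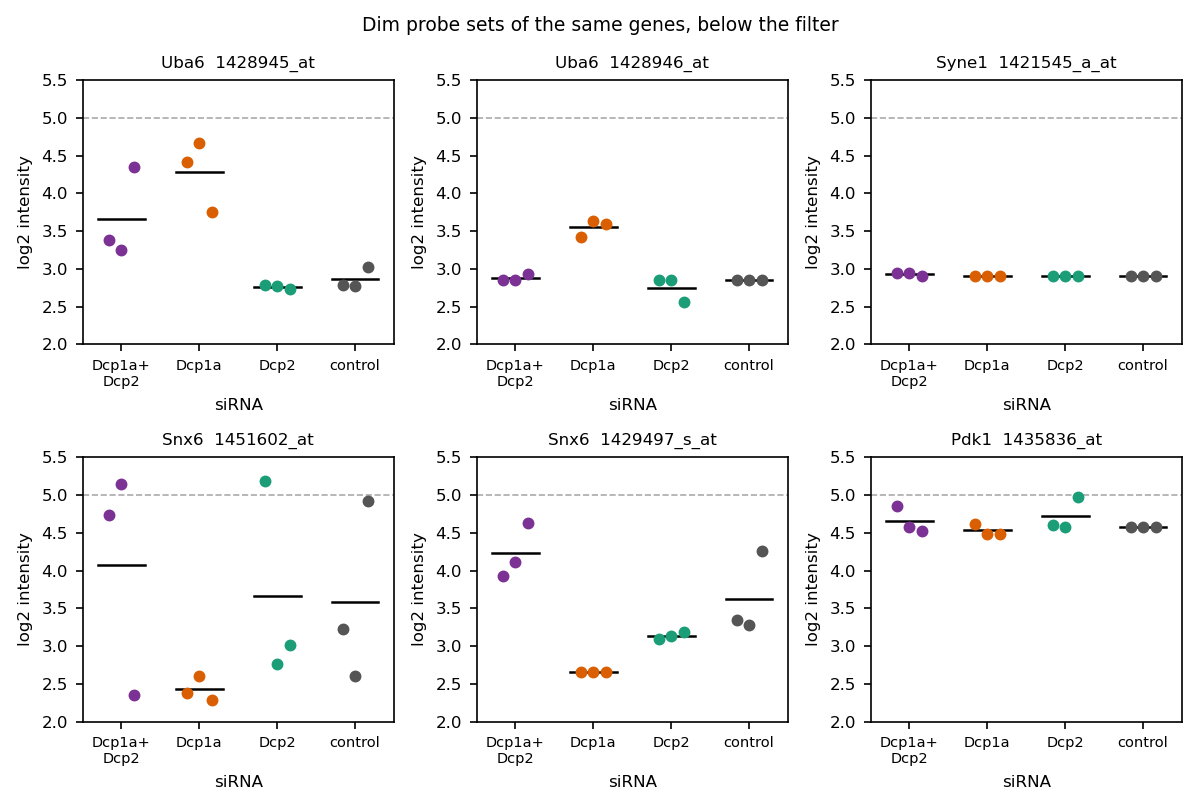
Log2 intensity of 6 probe sets of the same genes that did not pass the filter, by injected siRNA (3 arrays a group; points are arrays, black bars are group means, the dashed line is log2 5). Uba6 1428945_at is higher in both groups with Dcp1a siRNA, Snx6 1429497_s_at has the group order of 1447234_s_at, and the Syne1 and Pdk1 probe sets are nearly level.

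Syne1 read above 32 units with Dcp1a siRNA alone, and no array given Dcp2 siRNA as well reached that level. Syne1 1455225_at read 20.1, 20.2 and 20.8 units with both siRNAs and 40.3, 52.4 and 61.0 units with Dcp1a siRNA. It read 20.2, 20.2 and 23.6 units with Dcp2 siRNA and 19.3, 20.7 and 20.8 units in control eggs. The 9 arrays outside the Dcp1a siRNA group lay within 19.3 to 23.6 units, and all 3 Dcp1a siRNA arrays lay above them. How many of all probe sets have this pattern was not counted. The fitted log2 difference of double siRNA from Dcp2 siRNA eggs was -0.06 ± 0.18 (SE, 95% interval -0.45 to 0.32, limma adjusted p = 0.936) and did not pass. Without the pair of arrays that stood apart the difference was -0.10 (limma adjusted p = 0.791). All 6 arrays compared were under 32 units, and the gene was tested only through its Dcp1a siRNA arrays, so a difference beneath that level can be missed.

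As descriptions, Syne1 differed by 1.32 ± 0.18 for Dcp1a siRNA against control (at least 1.58-fold), by 0.07 ± 0.18 for Dcp2 siRNA and by 0.01 ± 0.18 for both. Double siRNA eggs were lower than Dcp1a siRNA eggs by -1.31 ± 0.18 (at least 1.58-fold, groups not overlapping), and the departure from additivity was -1.38 ± 0.25. The share of all probe sets without overlap between double and Dcp1a siRNA arrays was not counted. The other Syne1 probe sets gave no such pattern. Log2 values of 1421545_a_at lay between 2.91 and 2.94 in all 12 arrays, and those of 1455493_at were 2.29 in all. The Syne1 shift thus rests on 1 of 3 probe sets, for which no transcript accession is listed.

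The Snx6 probe sets gave different answers. The brightest, 1425148_a_at, did not carry the shift on which the gene was chosen. It read 11161, 12227.8 and 8439.3 units with both siRNAs, 13847.9, 17783.3 and 12558 with Dcp1a siRNA, 16256.4, 13882.8 and 15468.4 with Dcp2 siRNA and 13382.2, 21330.5 and 16203.3 in control eggs. Dcp1a siRNA and control arrays overlapped (log2 difference -0.19 ± 0.22). All double siRNA arrays were lower than all others, and the share of all probe sets with this pattern was not counted. Between double and Dcp2 siRNA arrays alone, 21.2% of all tested probe sets had no overlap in either direction. Against Dcp2 siRNA eggs the log2 difference was -0.53 ± 0.22 (SE, 95% interval -1.03 to -0.04), which did not pass (limma adjusted p = 0.264). It was -0.60 without the pair of arrays that stood apart (limma adjusted p = 0.179). As descriptions, the differences were -0.14 ± 0.22 for Dcp2 siRNA against control and -0.67 ± 0.22 for both against control, with a departure from additivity of -0.34 ± 0.32.

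The probe set on which Snx6 was chosen, 1447234_s_at, moved in opposite directions without and with Dcp2 siRNA. It read 261.5, 303.1 and 301.8 units with both siRNAs, 60.5, 40.7 and 30.4 with Dcp1a siRNA, 111.6, 160 and 77 with Dcp2 siRNA and 145.7, 215.5 and 226.9 in control eggs. Every Dcp1a siRNA array was below every control array, and every double siRNA array was above every Dcp2 siRNA array. The probe set rose 2.59-fold in double siRNA eggs against Dcp2 siRNA eggs, a log2 difference of 1.37 ± 0.31 (SE, 95% interval 0.68 to 2.06, limma adjusted p = 0.0231). Groups of this comparison did not overlap in 21.2% of all tested probe sets. The call was lost under median centring (1.16, limma adjusted p = 0.0527), with no filter (0.137), with the error taken from the 6 arrays compared (0.0519) and when any of 5 single arrays was left out. Those were double siRNA replicates 1, 2 and 3 and Dcp2 siRNA replicates 1 and 3, with limma adjusted p of 0.0639, 0.0854, 0.0731, 0.0675 and 0.0848 in that order. Without the pair of arrays that stood apart it was 1.64 (limma adjusted p = 0.0109).

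As descriptions, the log2 differences of 1447234_s_at were -2.19 ± 0.31 for Dcp1a siRNA against control, -0.79 ± 0.31 for Dcp2 siRNA and 0.58 ± 0.31 for both. Each single siRNA thus gave a lower mean than control and the mixture a higher one. Double siRNA eggs were above Dcp1a siRNA eggs by 2.77 ± 0.31, and the departure from additivity was 3.56 ± 0.44. A dimmer probe set, 1429497_s_at, had the same order of groups. It read 15.2, 17.4 and 24.8 units with both siRNAs, 6.3 in each Dcp1a siRNA array, 8.5, 8.8 and 9.1 with Dcp2 siRNA and 10.2, 9.7 and 19.2 in control eggs. All of these are under 32 units, and the double siRNA arrays were above the Dcp2 siRNA arrays by 1.09 (exact two-sided permutation p = 0.1, the smallest possible). The fourth, 1451602_at, shares its accession with 1425148_a_at and scattered within groups (difference 0.42, exact permutation p = 1). Over the 12 arrays the tested pair of Snx6 probe sets had Pearson's r of -0.288. Both suffixes mark probes common to several transcripts, and which transcripts these are was not examined.

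For Pdk1 no difference passed between double siRNA and Dcp2 siRNA eggs. Pdk1 1423747_a_at read 3057.1, 2804.6 and 3590.9 units with both siRNAs and 1554.1, 1522.4 and 949.6 units with Dcp1a siRNA. It read 3433.1, 3195.2 and 2657.6 units with Dcp2 siRNA and 4303, 4046.7 and 4434.6 units in control eggs. All 3 knockdown groups were below every control array, and Dcp1a siRNA eggs were lowest. Between Dcp1a siRNA and control arrays 11.6% of all tested probe sets had no overlap. The share in which all knockdown groups separate from control was not counted. Double and Dcp2 siRNA eggs overlapped, with a log2 difference of 0.03 ± 0.21 (SE, 95% interval -0.45 to 0.50, limma adjusted p = 0.983). Without the pair of arrays that stood apart it was 0.05 (limma adjusted p = 0.92).

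As descriptions, Pdk1 1423747_a_at was 3.25-fold lower with Dcp1a siRNA than in control eggs (log2 -1.70 ± 0.21). The differences from control were -0.47 ± 0.21 with Dcp2 siRNA and -0.44 ± 0.21 with both. Double siRNA eggs were above Dcp1a siRNA eggs by 1.26 ± 0.21 in all arrays, and the departure from additivity was 1.73 ± 0.30. The share of all probe sets that separate between double and Dcp1a siRNA arrays was not counted. The second tested probe set, 1423748_at, which shares the accession of the first, was lower in each knockdown mean but far more variable. It read 103.6, 77.6 and 235.1 units with both siRNAs, 69.1, 106.1 and 82.9 with Dcp1a siRNA, 71.7, 190 and 47.4 with Dcp2 siRNA and 307.7, 179.4 and 310.3 in control eggs. Dcp1a siRNA arrays lay below all control arrays here too (-1.61 ± 0.52), and the Dcp2 siRNA mean was as low (-1.58 ± 0.52). With both siRNAs the difference from Dcp2 siRNA eggs was 0.52 ± 0.52 (95% interval -0.62 to 1.65, limma adjusted p = 0.769), and 1.08 without the pair of arrays that stood apart (limma adjusted p = 0.218). Over 12 arrays r between the pair was 0.586. The remaining probe sets showed no group pattern, with log2 values of 4.49 to 4.98 for 1435836_at and 2.29 in all arrays for 1434974_at.

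**Figure D3:**
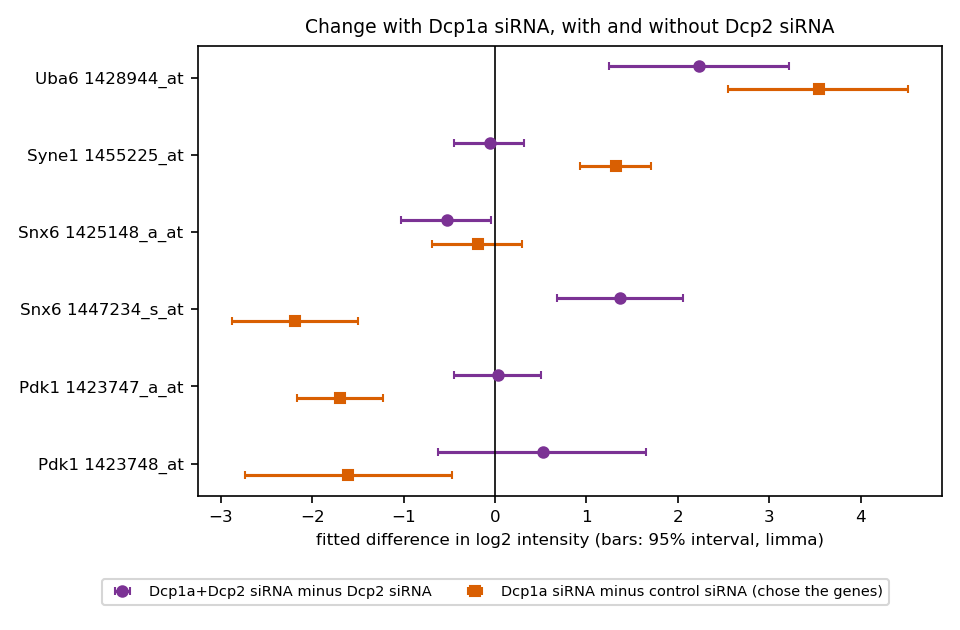
Fitted log2 difference made by Dcp1a siRNA in the presence of Dcp2 siRNA (circles) and in its absence (squares, the comparison that chose the genes), with 95% intervals from limma, for the 6 tested probe sets. Uba6 lies right of 0 on both, Syne1 and Pdk1 1423747_a_at lie near 0 with Dcp2 siRNA, and Snx6 1447234_s_at changes side.

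Set side by side, the differences made by Dcp1a siRNA with and without Dcp2 siRNA were 2.23 and 3.54 for Uba6, -0.06 and 1.32 for Syne1, 0.03 and -1.70 for Pdk1 1423747_a_at, and 1.37 and -2.19 for Snx6 1447234_s_at. The second value of each pair is the one that chose the gene and is given for description only. The other tested probe sets of these genes differed from that, with -0.53 and -0.19 for Snx6 1425148_a_at and 0.52 and -1.61 for Pdk1 1423748_at. With Dcp2 siRNA, Uba6 and the chosen Snx6 probe set passed, with Uba6 differing by 0.22 once values under 32 were set to 32 and Snx6 passing in 13 of 21 alternatives, and Syne1 and Pdk1 did not pass. Of the 6 tested probe sets a pair passed in the tested comparison, both upward. This share cannot be weighed against the 6.37% of all probe sets that passed. The genes were chosen with an error that included the arrays of this comparison. Double siRNA arrays were among those above the filter level for Uba6, and Snx6 and Pdk1 each counted with a pair of probe sets. Precision was limited by the number of arrays.

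**Figure D4:**
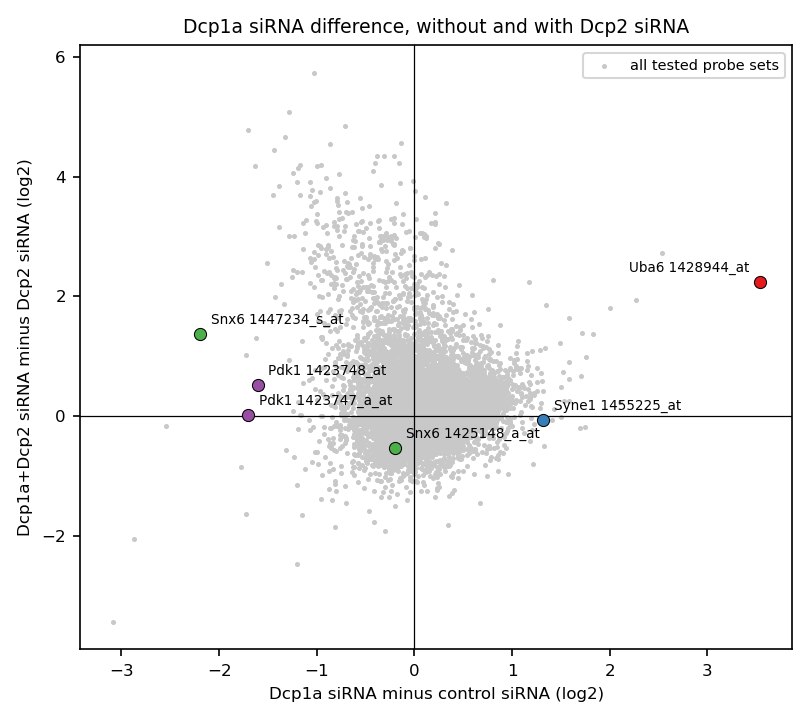
Fitted log2 difference made by Dcp1a siRNA against control siRNA (horizontal) and by both siRNAs against Dcp2 siRNA (vertical) for 11593 tested probe sets (grey), with the 6 of the 4 genes in colour. Uba6 is at the right edge and above 0, while most grey points far above 0 lie near or left of 0 on the horizontal axis.

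Genes with patterns most like those of the 4 were taken by Pearson's r over the 12 arrays, which share 4 groups and their normalization, so r describes these arrays only. Nearest to Uba6 were Evi5 (0.862), Mta1 (0.859) and Zfp148 (0.846). Mta1, a subunit of the NuRD chromatin complex, had mean log2 values of 5.58 with both siRNAs, 5.64 with Dcp1a siRNA, 5.08 with Dcp2 siRNA and 5.04 in control eggs. Its means, like those of Uba6, were thus higher in both groups that received Dcp1a siRNA, over a narrower range. Nearest to Syne1 were Tmem181a (0.898), Cep170b (0.898) and Mex3d (0.892). Tmem181a averaged 10.84 with both siRNAs, 11.58 with Dcp1a siRNA, 10.93 with Dcp2 siRNA and 11.05 in control eggs, with the Dcp1a siRNA mean alone standing high.

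Nearest to Pdk1 1423747_a_at were Sumf1 (0.91), Scpep1 (0.899) and Ddx5 (0.88). Sumf1, which activates sulfatases in the endoplasmic reticulum, averaged 10.75 with both siRNAs, 9.95 with Dcp1a siRNA, 10.55 with Dcp2 siRNA and 10.80 in control eggs. The Dcp1a siRNA mean was again the one apart, here on the low side. Nearest to Snx6 1425148_a_at were Rrp1 (0.931), Smarca5 (0.928) and Brwd3 (0.928). Smarca5, an ATPase of the ISWI chromatin remodellers, averaged 9.24 with both siRNAs, 9.92 with Dcp1a siRNA, 10.01 with Dcp2 siRNA and 10.15 in control eggs. Added after the data were seen, the nearest genes to Snx6 1447234_s_at were Lamtor5 (0.944), Orc2 (0.944) and Eif3e (0.94). Eif3e, a subunit of translation initiation factor eIF3, averaged 10.46 with both siRNAs, 9.18 with Dcp1a siRNA, 9.82 with Dcp2 siRNA and 10.23 in control eggs. That is the order of groups seen in Snx6 1447234_s_at.

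Other genes of the pathways in which the 4 genes act were examined by their brightest tested probe set. Of the ubiquitin-like E1 enzymes and partners of Uba6, 5 of 9 on the array were tested and 0 passed in limma in either comparison, also 0 at an unadjusted p under 0.05. Their median log2 difference was 0.07 in double siRNA against Dcp2 siRNA eggs and 0.07 in Dcp1a siRNA against control eggs, where all genes had medians of 0.06 and 0.10. Ube2z, the conjugating enzyme that receives ubiquitin and FAT10 from Uba6, differed by 0.12 ± 0.19 with both siRNAs against Dcp2 siRNA (SE, limma adjusted p = 0.878). Sae1, a subunit of the SUMO E1 enzyme, differed by -0.15 ± 0.14 (limma adjusted p = 0.759).

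Of 11 tested genes of the nuclear envelope bridge and lamina, from 18 on the array, 1 rose and 0 fell in double siRNA against Dcp2 siRNA eggs, where 6.12% of all probe sets passed upward. The list median was 0.16 there and 0.26 in Dcp1a siRNA against control eggs, where 0 passed in limma and 0 had an unadjusted p under 0.05. The gene that rose was Lmna, which encodes the A-type lamins beneath the inner nuclear membrane. Lmna 1457670_s_at read 888, 920.2 and 469.9 units with both siRNAs, 66.8, 52.6 and 36.8 with Dcp1a siRNA, 114.1, 71.5 and 121.2 with Dcp2 siRNA and 54.2, 35.8 and 203.2 in control eggs. The double siRNA arrays stood above all others, and the difference from Dcp2 siRNA eggs was 2.87 ± 0.55 on the log2 scale (SE, limma adjusted p = 0.00932). Double and Dcp2 siRNA arrays did not overlap in 21.2% of all tested probe sets, and the share with double siRNA arrays above all others was not counted. Lmna also passed against control, a comparison in which 8.72% of all probe sets passed, and in the departure from additivity, where 3.93% did. Its other tested probe sets gave 0.72 ± 0.16 for 1421654_a_at (limma adjusted p = 0.0199), -0.04 ± 0.35 for 1426868_x_at and -0.07 ± 0.15 for 1452212_at, so they disagree. The call of 1457670_s_at was lost with no filter (limma adjusted p = 0.094) and kept without the pair of arrays that stood apart (2.63, adjusted p = 0.0423). Banf1, which bridges chromatin and the envelope, differed by 0.81 ± 0.43 (limma adjusted p = 0.433).

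The list of the retromer and the BAR-domain sorting nexins also held Snx3, Snx12, Rab7, Igf2r and subunits of the WASH complex. Of its 16 tested genes, from 26 on the array, 1 rose and 0 fell with both siRNAs against Dcp2 siRNA. That share is near the 6.12% of all probe sets that passed upward, and the list median was 0.19. In Dcp1a siRNA against control eggs 0 passed in limma, 0 had an unadjusted p under 0.05, and the median was 0.08. Snx5, which pairs with SNX-BAR partners in the same coat as Snx6, was the gene that rose. It read 54.9, 74.6 and 69.4 units with both siRNAs, 36.5, 34.3 and 30.9 with Dcp1a siRNA, 41.5, 38.4 and 23.5 with Dcp2 siRNA and 40.5, 44.6 and 45.2 in control eggs. Double siRNA arrays were above all others, and the share of all probe sets with this pattern was not counted. Between double and Dcp2 siRNA arrays alone, 21.2% of all tested probe sets had no overlap in either direction. Snx5 rose by 0.97 ± 0.22 against Dcp2 siRNA eggs (log2, SE, limma adjusted p = 0.0247). That call was lost under median centring (0.76, limma adjusted p = 0.0898), quantile normalization (0.0841), no filter (0.094) and the error from the 6 arrays compared (0.131). It was also lost without Dcp2 siRNA replicate 3 (limma adjusted p = 0.0603) and without double siRNA replicates 2 and 3 (0.103 and 0.0803), but not without the pair of arrays that stood apart (1.07, adjusted p = 0.0379). Washc5, a subunit of the WASH complex on endosomes, differed by 0.84 ± 0.25 (limma adjusted p = 0.0846). It passed with the error from the 6 arrays compared (limma adjusted p = 0.0457) and without control replicate 1 (0.0365) or 3 (0.0116). In the other settings it did not.

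The list of the pyruvate dehydrogenase complex, its kinases and phosphatases and the pyruvate carriers also held Ldhb. Of its 10 tested genes, from 15 on the array, 0 passed in limma in either comparison. At an unadjusted p under 0.05 there was 1 with both siRNAs against Dcp2 siRNA, and 0 with Dcp1a siRNA against control. The list median was 0.17 with both siRNAs against Dcp2 siRNA and 0.32 with Dcp1a siRNA against control. Pdk3, a second kinase of the complex, read 172.9, 152.3 and 196.4 units with both siRNAs, 90.7, 76.4 and 104 with Dcp1a siRNA, 96.2, 39.9 and 96.2 with Dcp2 siRNA and 88.7, 32.4 and 84.3 in control eggs. Its double siRNA arrays were above all others, yet the difference from Dcp2 siRNA eggs, 1.27 ± 0.42, did not pass (log2, SE, limma adjusted p = 0.125). Pdk3 passed with the replicate number fitted as a block (limma adjusted p = 0.0335) and without control replicate 2 (0.0411), and in no other setting. In 21.2% of all tested probe sets double and Dcp2 siRNA arrays did not overlap, and the share with double siRNA arrays above all others was not counted. Dld, the dihydrolipoamide dehydrogenase subunit, had a mean under the 32-unit floor with Dcp2 siRNA and differed by 0.98 ± 0.79 (limma adjusted p = 0.683).

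**Figure D5:**
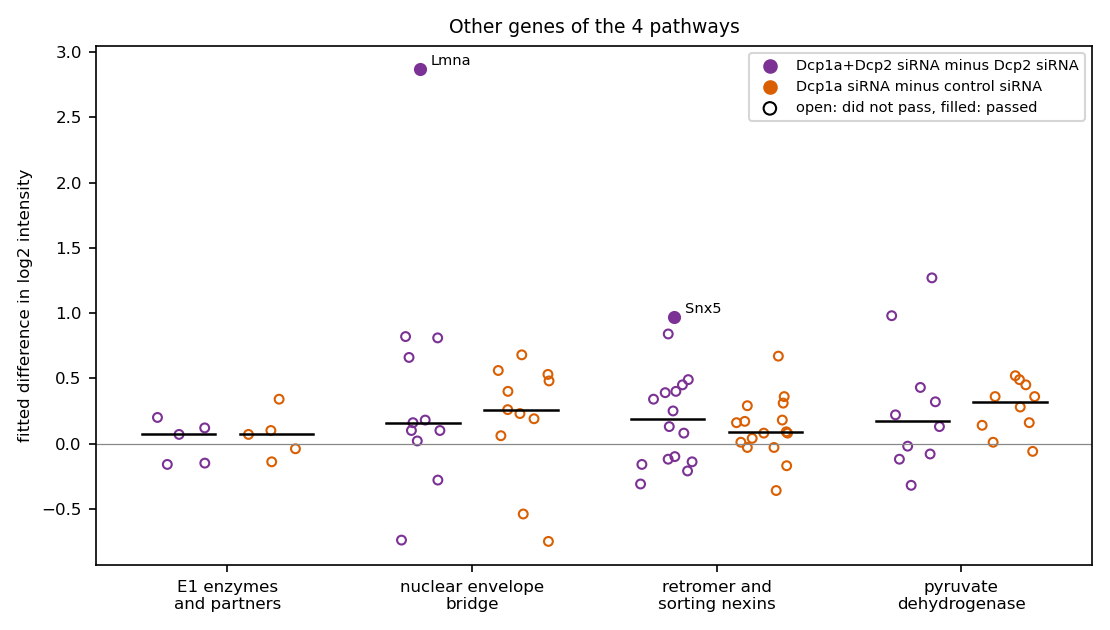
Fitted log2 difference of the other tested genes of the 4 pathways, 1 point a gene, in double siRNA against Dcp2 siRNA eggs (left of each pair) and Dcp1a siRNA against control eggs (right), with list medians as bars. Filled points passed an adjusted p of 0.05 in limma, which were Lmna and Snx5 in the first comparison and none in the second.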

How the data were processed

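The deposited values were intensities on a linear scale, 1 for each probe set in each of 12 arrays, with a minimum of 4.9 units and 55.6% of values at or under 5. The authors made the intensity values with GCRMA, as the submitters' processing notes name it (per the labels, no version was stated). This method corrects background, normalizes between arrays and draws weak signals to a floor, so dim differences depend on it.

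Intensities were taken to log2. Probe sets with log2 above 5 in at least 3 of 12 arrays were tested (11593 of 45037, after leaving out 64 controls) with limma 3.58.1 in R 4.3.3 on 4 group means, two-sided, with Benjamini-Hochberg adjustment over all of them, a threshold of 0.05, and 8 residual and 2.97 prior degrees of freedom. Dimmer probe sets had exact permutation tests over arrays. Where the dimmer group lay at or under log2 5, a fold is a bound measured from 32 units. Names came from the platform annotation, and all 4 symbols matched the RefSeq table.

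The genes and pathway lists were chosen with earlier results of these data known. Beside the 4 genes and the targets, each list gave the genes that passed, or its lowest 2 by p when under 2 did. The procedure was tested on simulated data. Alternatives covered centring, quantile normalization, filter, floor, variance and left-out arrays. No sequences or coordinates are given.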

Additional observations from a re-analysis of the deposited data

Results flagged for a closer look

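For Snx6 1447234_s_at the Dcp1a siRNA difference was larger by 3.56 on the log2 scale with Dcp2 siRNA than without it, since every double siRNA array was above every Dcp2 siRNA array while every Dcp1a siRNA array was below every control array. Snx6 1429497_s_at had the same opposite directions below the 32-unit floor, with a log2 value of 2.06. For both, the difference between the directions was not tested, because the gene was chosen on the Dcp1a siRNA and control arrays that enter it. In Lmna 1457670_s_at the mixture departed from the sum of the single differences by 3.40 (limma adjusted p = 0.0347), and in Snx5 1417646_a_at by 1.33 (limma adjusted p = 0.0415). In both genes all 3 double siRNA arrays were above the other 9 arrays, and the share of all probe sets with this pattern was not counted.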

How the results depend on the processing

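The comparison of double siRNA with Dcp2 siRNA eggs had 739 calls, against 489 with no filter and 471 to 863 when single arrays were left out, with 471 and 477 without double siRNA replicates 1 and 2. Uba6 was called in 16 of 20 alternatives. Its difference of 2.23 had a limma adjusted p of 0.103 with no filter and 0.0941 with the variance from the 6 arrays compared, it was 0.22 with values under 32 set to 32, and it ran from 1.83 to 2.90 when single arrays were left out. Syne1 was not called in any and gave 0 with values under 32 set to 32 and -0.10 to 0.01 when single arrays were left out. Snx6 1447234_s_at was called in 13 of 21. It was 1.16 under median centring, 1.37 with no filter (limma adjusted p = 0.137) and with the variance from the 6 arrays compared (limma adjusted p = 0.0519), and 1.11 to 1.64 when single arrays were left out. Snx6 taken by that probe set gave 1.37 in place of -0.53. Pdk1 1423747_a_at was not called in any and gave -0.18 under median centring, -0.05 under quantile normalization and -0.08 to 0.11 when single arrays were left out. Median centring moved the median difference of all probe sets by -0.21, and quantile normalization by -0.16. The replicate numbers were not taken to pair the samples in the main fit. Deviations of same-numbered double and Dcp2 siRNA arrays correlated at 0.114, -0.685 and -0.674. Those of Dcp1a siRNA and control arrays correlated at 0.256, 0.25 and 0.0139. With the replicate block 615 probe sets were called, Uba6 gave 2.23 (limma adjusted p = 0.0168) and Snx6 1447234_s_at 1.37 (limma adjusted p = 0.043), and no call of the 4 genes in this comparison changed, while all 4 lost the adjusted threshold in Dcp1a siRNA against control eggs, on which they were chosen. The number of arrays limits precision, and signal near the floor limits Uba6 and Syne1.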
